A study of Mus musculus with 24 samples.

Results

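The experiment described here was the response to lipopolysaccharide (LPS) in RAW264.7 macrophages that already held proanthocyanidins (PAC) of medium polymerization. It was read from 6 of the 24 arrays of the series, chosen by title: 3 arrays of medium PAC with LPS and 3 arrays of medium PAC without it. RAW264.7 is an established mouse macrophage-like line, and PAC are plant polymers of flavan-3-ol units, here from grape. In the medium PAC + LPS group, cells were given PAC at 15 µg/mL for 30 min and then LPS at 500 ng/mL. The medium PAC group had the same PAC and a mock treatment in place of LPS. A further 6 arrays served for comparison, 3 of cells given LPS and no PAC and 3 of mock-treated control cells. RNA was taken after 6 h with LPS or mock treatment in every group. All groups were of the same single cell line, the replicates carried numbers only, and nothing says that they came from separate cultures, so the p-values measure the spread between these samples, which may be technical.

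LPS, a component of the outer membrane of Gram-negative bacteria, is bound by macrophages through CD14, MD-2 and Toll-like receptor 4 (TLR4). One adaptor route, through MyD88, activates NF-kB and mitogen-activated protein kinases and switches on cytokine and chemokine genes within minutes to hours. The other, through TRIF, activates interferon regulatory factors, and the interferon-beta that follows acts back on the cells through JAK and STAT proteins to switch on interferon-stimulated genes. Macrophages stimulated in this way also stop dividing and lower many genes of DNA replication.

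Each value below is an array signal on the deposited log2 scale, and each change is a difference between group means on that scale. The response within medium PAC is medium PAC + LPS minus medium PAC, the response without PAC is LPS minus control, and a difference between responses is the response within medium PAC minus the response without PAC. These responses shared no array. Calls were made in limma at an adjusted p under 0.05, with adjustment over all 22206 features. The silent level, 4.73, is the 95th percentile of the mean signals of 1414 olfactory and vomeronasal receptor features. Of the 9 macrophage markers measured, 8 exceeded the silent level, among them Spi1 at 17.92 with LPS and 17.88 without it and Lyz2 at 17.42 with LPS and 18.19 without it, whereas Mertk lay at 2.78 with LPS and 2.80 without it. None of the 8 B cell markers exceeded it, and of 44 markers of neutrophils, T cells, fibroblasts, epithelial cells and mast cells 7 did, among them Hdc, a histamine-forming enzyme that macrophages also make, at 11.79 with LPS and 5.41 without it.

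One resting array stood apart. On replicate 3 of medium PAC, 30 of the 43 interferon-stimulated genes, 16 of the 29 cytokines and 15 of the 20 chemokines had their highest value of the 3 resting arrays, against 7622 of all 22206 features. The median chemokine signal was 6.43 on that array and 4.65 and 5.22 on the other resting medium PAC arrays. Gene medians were 4.94 to 4.95 on these 3 arrays. The part of this array in the results was not tested beyond leaving it out. Values without it are given for some of the genes and lists that were highest at rest on it, and others may depend on it too. The median change within medium PAC without that array was 6.65 for the interferon-stimulated genes, 2.62 for the cytokines, 2.99 for the chemokines and 0.23 for the matrix proteases and inhibitors.

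LPS called 6222 features within medium PAC, or 28.0% of those tested: 2415 rose (10.9%) and 3807 fell (17.1%). Without medium PAC replicate 3 the counts were 2159 and 3479. Without PAC, LPS called 7493 features (33.7%), of which 2992 rose (13.5%) and 4501 fell (20.3%). The difference between the responses was called for 1397 features (6.29%): it was positive for 675 (3.04%) and negative for 722 (3.25%). When the arrays were instead centred on their negative controls, which moved the median change of all features within medium PAC by more than 0.1, to -0.14, the difference was called positive for 356 features and negative for 842. Of the 6222 features called within medium PAC, 329 had both group means at or below the silent level.

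Most LPS-changed genes kept their direction in cells with medium PAC. Of the 2992 features that rose without PAC, 1844 (61.6%) also rose within medium PAC, and these were 76.4% of the features that rose within medium PAC. Of the 4501 that fell without PAC, 3287 (73.0%) also fell within medium PAC, or 86.3% of those that fell there. Among the 1844, the rise was called smaller within medium PAC for 353 and larger for 43. Among the 3287, the fall was called smaller for 425 and larger for 48. A further 1120 rises and 1201 falls were not called within medium PAC, and the difference itself was called for 212 and 127 of them, so most of these features cannot be said to have responded differently. Features called in opposite directions numbered 41. The median change of the features that rose without PAC was 0.72 within medium PAC and 1.11 without PAC, and that of the features that fell was -0.93 within medium PAC and -1.27 without PAC.

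**Figure D1:**
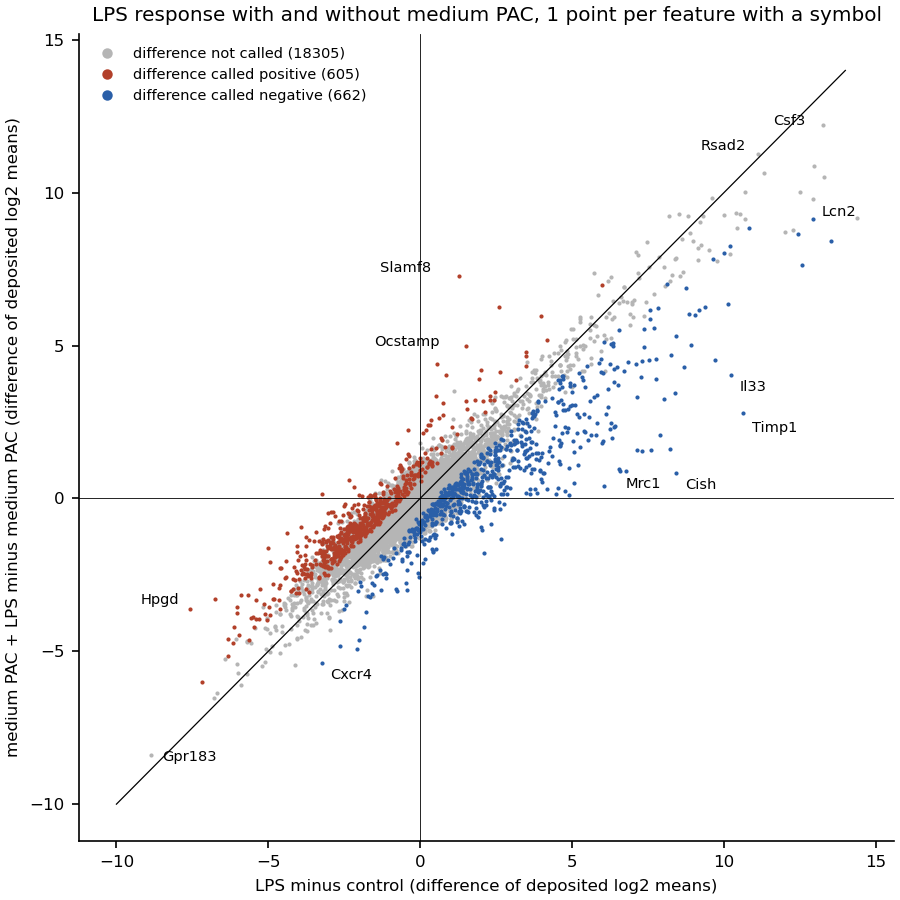
Each point is 1 of 19572 gene features with a symbol, with its LPS change without PAC on the x axis and its change within medium PAC on the y axis, both as differences of deposited log2 means; the line marks equal changes. Red points (605) had a difference called positive and blue points (662) one called negative, and blue points such as Timp1 and Cish lie far below the line at large rises without PAC.

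**Figure D2:**
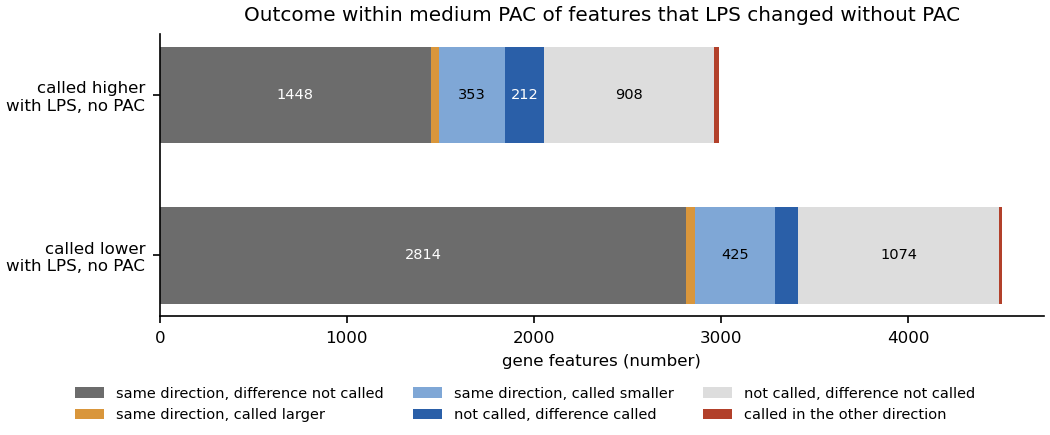
Stacked bars count the gene features that LPS raised (2992) or lowered (4501) without PAC, split by what the same features did within medium PAC. The darkest segments, 1448 and 2814 features, changed in the same direction with no difference called.

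The largest rise within medium PAC was that of a cytokine gene, and interferon-stimulated genes and chemokines were among the rises that followed. Csf3, the gene of the granulocyte colony-stimulating factor G-CSF, gave 17.05, 16.95 and 16.95 in medium PAC + LPS cells, against 3.62, 3.75 and 6.91 in medium PAC cells. The change was 12.23 (95% interval 10.31 to 14.14, adjusted p = 1.01e-09), or 13.30 without medium PAC replicate 3, and LPS raised the gene by 13.28 without PAC. Rsad2, an antiviral protein of the interferon response also called viperin, gave 16.09, 15.69 and 16.04 with LPS and 4.09, 3.35 and 6.62 without it within medium PAC, a change of 11.25, or 12.22 without medium PAC replicate 3. The leading rises were picked among called features whose arrays with and without LPS did not overlap, which 6064 of the 6222 called features met. In both Csf3 and Rsad2, resting replicate 3 was the highest of the medium PAC arrays without LPS. Ccl5, a chemokine for T cells and monocytes, rose by 10.88, and Ccl22, a chemokine for regulatory T cells, by 10.52. Saa3, an acute phase protein, rose by 10.04, and Lcn2, which withholds bacterial iron carriers, by 9.78. Without PAC the rises were 12.97 for Ccl5, 13.3 for Ccl22, 12.52 for Saa3 and 12.94 for Lcn2. None of these 6 genes had a called difference between the responses, which does not show that the rises were equal. The differences were -2.1 for Ccl5, -2.78 for Ccl22, -2.49 for Saa3 and -3.16 for Lcn2 (adjusted p 0.12 to 0.19). They were -1.05 for Csf3 and 0.11 for Rsad2. The other leading rises were Ifit1 (10.64), Gbp2 (10.03), Isg15 (9.81), Gbp3 (9.35), Cxcl10 (9.31) and Ifit3b (9.29), of which Cxcl10 is an interferon-induced chemokine and the rest act against viruses and intracellular microbes.

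Promoters of genes that rose together are shown here because their bases carry motifs that interferon-activated factors and NF-kB are known to bind. The 250 bases before the RefSeq start site were searched on both strands for an ISRE-like motif (GAAANNGAA), a kB-like motif (GGANTTTCC), AP-1 (TGACTCA), CRE (TGACGTCA), a CLEAR-like motif (TCACGTGA) and an E2F-like motif (TTTCGCGC). Capitals mark every match on either strand, including overlapping ones, and each sequence runs 5′ to 3′ on the strand of the gene up to the base before its start (mouse build GRCm38.p6). Ifit1 is at chr19:34640768-34640888 on the plus strand, Isg15 at chr4:156200819-156200918 on the minus strand, Rsad2 at chr12:26456453-26456583 on the minus strand, Gbp2 at chr3:142620549-142620662 on the plus strand and Cxcl10 at chr5:92348890-92349114 on the minus strand.
Ifit1: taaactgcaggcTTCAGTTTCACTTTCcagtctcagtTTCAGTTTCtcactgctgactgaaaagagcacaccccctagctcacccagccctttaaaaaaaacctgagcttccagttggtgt
Isg15: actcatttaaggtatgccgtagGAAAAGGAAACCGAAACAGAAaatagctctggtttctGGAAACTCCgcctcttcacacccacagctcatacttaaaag
Rsad2: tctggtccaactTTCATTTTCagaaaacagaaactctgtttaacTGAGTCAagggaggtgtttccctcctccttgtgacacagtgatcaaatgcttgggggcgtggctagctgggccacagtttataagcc
Gbp2: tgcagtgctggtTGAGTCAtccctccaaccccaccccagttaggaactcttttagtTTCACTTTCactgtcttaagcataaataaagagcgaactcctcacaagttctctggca
Cxcl10: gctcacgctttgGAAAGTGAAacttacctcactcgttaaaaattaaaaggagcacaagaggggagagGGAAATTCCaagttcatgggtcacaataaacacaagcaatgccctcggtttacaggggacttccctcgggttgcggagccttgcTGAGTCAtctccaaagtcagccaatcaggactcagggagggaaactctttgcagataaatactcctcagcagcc
Ifit1 and Isg15 each held 3 ISRE-like matches, Isg15 also held a kB-like match 41 to 33 bases before its start, and Cxcl10 held an ISRE-like, a kB-like and an AP-1 match. The ISRE-like motif was found in 21 of 39 promoters of the interferon list (53.8%), against 7.13% of all 32851 promoters in the table. A match is a description of the letters and not of a bound site.

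All 43 measured interferon-stimulated genes rose within medium PAC, as all 43 did without PAC, beside 10.9% and 13.5% of all features. Their changes ran from 1.92 to 11.25 within medium PAC, with a median of 6.43, and from 1.93 to 11.31 without PAC, with a median of 6.70. The median signal of the list was 14.43, 14.50 and 14.44 on the medium PAC + LPS arrays, against 7.39, 7.57 and 8.07 on the medium PAC arrays. A difference between the responses was called positive for 1 of the 43 (2.3%) and negative for 2 (4.7%), near the 3.04% and 3.25% of all features. It was not called for the other 40, and its 95% interval lay within 1 of 0 for 13 of the 43. For Ifit1, which blocks the translation of viral RNA, the difference was -0.67 with an interval of -1.97 to 0.63. For Isg15, a ubiquitin-like modifier, it was 0.19 with an interval of -1.25 to 1.63. Usp18, the protease that removes ISG15 and restrains interferon receptor signalling, rose by 5.86 within medium PAC and 7.56 without PAC, and its difference of -1.70 was called (adjusted p = 0.000159). Its level with LPS was 0.08 above that of LPS cells without PAC, while resting medium PAC cells lay 1.78 above control. Parp14, an ADP-ribosyltransferase, had the only positive difference called, 0.99, and that call was lost when the model held only the 4 groups of this comparison.

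Of 29 cytokine genes measured, 24 rose (82.8%, beside 10.9% of all features) and none fell (beside 17.1%) within medium PAC. Without medium PAC replicate 3 the count of rises was 23, and 26 rose without PAC. The median change was 2.81 within medium PAC and 5.02 without PAC. The difference was called negative for 15 of the 29 and positive for none, beside 3.25% and 3.04% of all features. Csf2, the gene of the granulocyte-macrophage colony-stimulating factor GM-CSF, gave 5.28, 6.40 and 5.47 in medium PAC + LPS cells, against 4.60, 3.72 and 3.98 in medium PAC cells. LPS cells without PAC gave 12.02, 11.59 and 11.56, against 3.50, 3.66 and 3.37 in control. The rise of 1.62 within medium PAC and 8.21 without PAC differed by -6.59 (interval -7.72 to -5.47, adjusted p = 7.5e-08). Within medium PAC the groups did not overlap, but every array with LPS stayed below every array of LPS cells without PAC. Il33, an alarmin of the interleukin-1 family, rose by 4.05 within medium PAC and 10.25 without PAC. Il19, of the interleukin-10 family, changed by 0.90 within medium PAC and 6.58 without PAC, and all 6 of its medium PAC values lay below the silent level.

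Il6, the acute phase and B cell cytokine, still rose strongly in cells with medium PAC. It gave 12.50, 12.57 and 12.72 in medium PAC + LPS cells and 2.82, 3.48 and 4.05 in medium PAC cells, a change of 9.15, and the change without PAC was 12.95. The difference of -3.80 was called (adjusted p = 0.0013), and LPS cells with medium PAC lay 3.03 below LPS cells without it. Lif, a relative of interleukin-6, rose by 7.64 within medium PAC and 12.57 without PAC. Il10, which damps macrophage activation, rose by 6.89 within medium PAC and 8.77 without PAC, and Il27, which acts on T cells, by 8.25 within medium PAC and 10.21 without PAC, both with a called negative difference. Il1b, the secreted pyrogen interleukin-1 beta, gave 15.18, 15.07 and 15.27 with LPS and 5.02, 5.0 and 9.39 without it, and the difference of -3.31 was not called (interval -6.77 to 0.14, adjusted p = 0.324). Il1a rose by 9.18 within medium PAC and 14.38 without PAC, again with a difference that was not called (-5.19, adjusted p = 0.0773). Both interleukin-1 genes were highest at rest on medium PAC replicate 3, and their changes without that array were 10.17 and 10.50.

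A smaller response did not always mean a lower level with LPS. Tnf, the gene of tumour necrosis factor, gave 18.22, 18.05 and 18.23 in medium PAC + LPS cells and 14.57, 14.42 and 14.76 in medium PAC cells, a rise of 3.59, compared with 4.58 without PAC. Its level was 0.69 higher in medium PAC + LPS cells than in LPS cells, and 1.68 higher in medium PAC cells than in control. Il1rn, the interleukin-1 receptor antagonist, rose by 1.80 within medium PAC and 6.00 without PAC. Its LPS levels were 0.08 apart, and medium PAC cells lay 4.29 above control at rest. By arithmetic, each difference between the responses is the gap between the PAC and no-PAC groups with LPS minus the gap between them at rest. Among the 722 features with a negative difference, the gap with LPS was the larger contribution for 452 and the gap at rest for 270. Their median gap was -0.94 with LPS and 0.36 at rest. Among the 675 with a positive difference, the gap with LPS was larger for 431 and the gap at rest for 244, with a median gap of 0.74 with LPS and -0.37 at rest. No test was run on these shares.

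**Figure D3:**
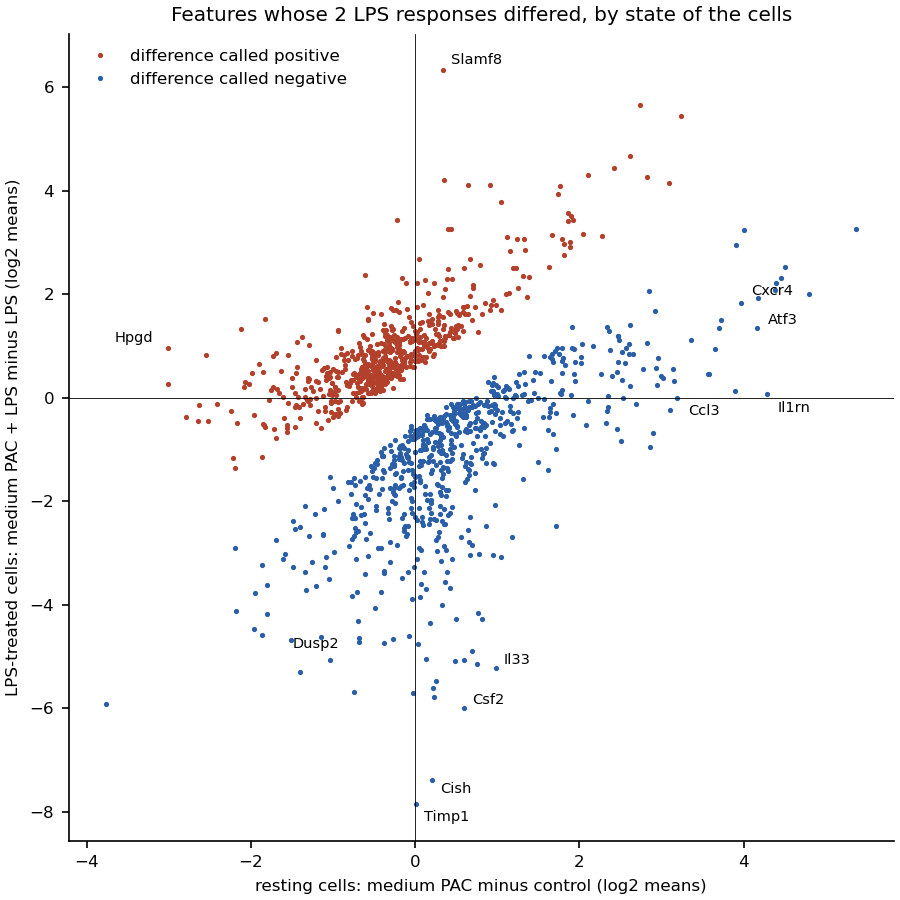
Each point is a feature with a symbol whose LPS responses differed, with the resting gap (medium PAC minus control) on the x axis and the gap with LPS (medium PAC + LPS minus LPS) on the y axis, both in deposited log2 units. Timp1 and Cish lie near 0 on the x axis and below -7 on the y axis, while Il1rn, Ccl3 and Atf3 lie far to the right of 0.

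Among 20 chemokines, 16 rose and 1 fell in each response, beside 10.9% and 17.1% of all features within medium PAC. The median change was 2.84 within medium PAC and 5.62 without PAC, and the difference was called negative for 6 and positive for 1, beside 3.25% and 3.04% of all features. Ccl3 and Ccl4 encode macrophage inflammatory proteins. Ccl3 rose by 2.20 within medium PAC and 5.40 without PAC, and Ccl4 by 5.99 within medium PAC and 9.05 without PAC. Ccl3 gave 19.24, 19.15 and 19.22 in medium PAC + LPS cells, against 17.00, 16.61 and 17.37 in medium PAC cells. The levels with LPS lay near the highest value in the table, 19.26, and whether the probes were saturated was not tested. They differed from LPS cells by less than 0.01, while at rest medium PAC cells lay 3.19 above control. Ccl2, the monocyte chemokine MCP-1, rose by 9.25 within medium PAC and 9.32 without PAC and its difference was -0.07 (interval -0.97 to 0.83). Cxcl2, which recruits neutrophils, rose by 8.78 within medium PAC and 12.28 without PAC, with 7.98, 8.59 and 11.85 at rest in medium PAC cells (9.97 within medium PAC without replicate 3), and the difference of -3.50 was not called (adjusted p = 0.162). Cxcl16, a scavenger receptor and ligand of CXCR6, was the 1 chemokine with a difference called positive. It gave 16.21, 16.02 and 16.22 with LPS and 15.02, 14.80 and 14.71 without it within medium PAC, a change of 1.31. Without PAC it changed by -0.01. Cxcl14 fell by 1.67 within medium PAC, the 1 fall of the list.

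Of 23 genes of TLR4 signalling, the receptor side of the response, 13 rose and 3 fell within medium PAC, against 15 and 5 without PAC, beside 10.9% and 17.1% of all features. The difference between the responses was called negative for 7 of the 23 and positive for 3, beside 3.25% and 3.04% of all features. Tlr4 itself gave 10.77, 10.80 and 10.90 in medium PAC + LPS cells and 12.17, 12.38 and 12.61 in medium PAC cells, a change of -1.56, a larger fall than the -0.51 without PAC (difference -1.05, adjusted p = 0.00204). Cd14, the LPS co-receptor, was not called within medium PAC, at a change of 0.19, but was called under 2 alternatives (lowest adjusted p 0.011). Myd88, the main adaptor, rose by 1.74 within medium PAC and 1.58 without PAC. Traf1, an adaptor of tumour necrosis factor receptors, had the largest rise of the list, 4.98 within medium PAC and 5.42 without PAC. Map3k8, the kinase TPL2 that links NF-kB to ERK, rose by 1.92 within medium PAC and 4.57 without PAC (difference -2.66, adjusted p = 0.00035). Ticam2, the adaptor TRAM, fell by 2.04 without PAC and was not called within medium PAC, at -0.19, and the difference of 1.85 was called.

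NF-kB genes and inhibitors rose in both responses, 15 of 18 within medium PAC (83.3%, beside 10.9% of all features). Their median change was 2.41 within medium PAC and 3.08 without PAC. The difference was called negative for 7 (38.9%, beside 3.25% of all features) and positive for none. Nfkbiz, a nuclear coactivator, led with a rise of 7.40. Bcl3, a nuclear IkB protein, gave 12.08, 12.06 and 11.85 in medium PAC + LPS cells and 9.19, 9.95 and 9.41 in medium PAC cells. Its rise of 2.48 compared with 5.83 without PAC (difference -3.35, adjusted p = 3.02e-07). Tnfaip3, the ubiquitin-editing inhibitor A20, rose by 6.03 within medium PAC and 8.84 without PAC, and Nfkbia, the inhibitor IkB-alpha, by 2.75 within medium PAC and 3.77 without PAC. For Tnfaip3 the gap between medium PAC + LPS and LPS was -0.49, and that between medium PAC and control was 2.33.

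The largest negative differences between the responses were strong LPS rises that were much smaller, or in the case of Lix1 not called, within medium PAC. Timp1, an inhibitor of matrix metalloproteinases, gave 5.60, 5.27 and 6.78 in medium PAC + LPS cells, against 2.27, 4.59 and 2.46 in medium PAC cells. In LPS cells it gave 13.75, 14.13 and 13.33, against 2.78, 3.71 and 2.81 in control. The rises of 2.78 within medium PAC and 10.64 without PAC differed by -7.86 (interval -9.50 to -6.21, adjusted p = 1.08e-06). Cish, a STAT5-induced inhibitor of cytokine receptors, gave 2.76, 2.78 and 3.77 with LPS and 2.28, 2.16 and 2.36 without it within medium PAC, and 10.44, 10.63 and 10.42 in LPS cells against 1.92, 2.03 and 2.22 in control. The within medium PAC change of 0.84 was called (adjusted p = 0.0163) although all 6 values lay below the silent level, and the difference was -7.60. Ptger2, a prostaglandin E2 receptor, rose by 1.59 within medium PAC and 7.62 without PAC, and Maf, a macrophage transcription factor, by 2.07 within medium PAC and 7.90 without PAC. Mmp13, a collagenase, changed by 0.88 within medium PAC and 6.78 without PAC, and the uncharacterized transcript U90926 by 1.57 within medium PAC and 7.30 without PAC. Lix1, little studied in macrophages, was not called within medium PAC (0.40) and rose by 6.06 without it. With Csf2, Il33 and Il19 these made up the 10 most negative differences, and every one of the 10 remained called in every one of the 12 fits that left out 1 array.

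**Figure D4:**
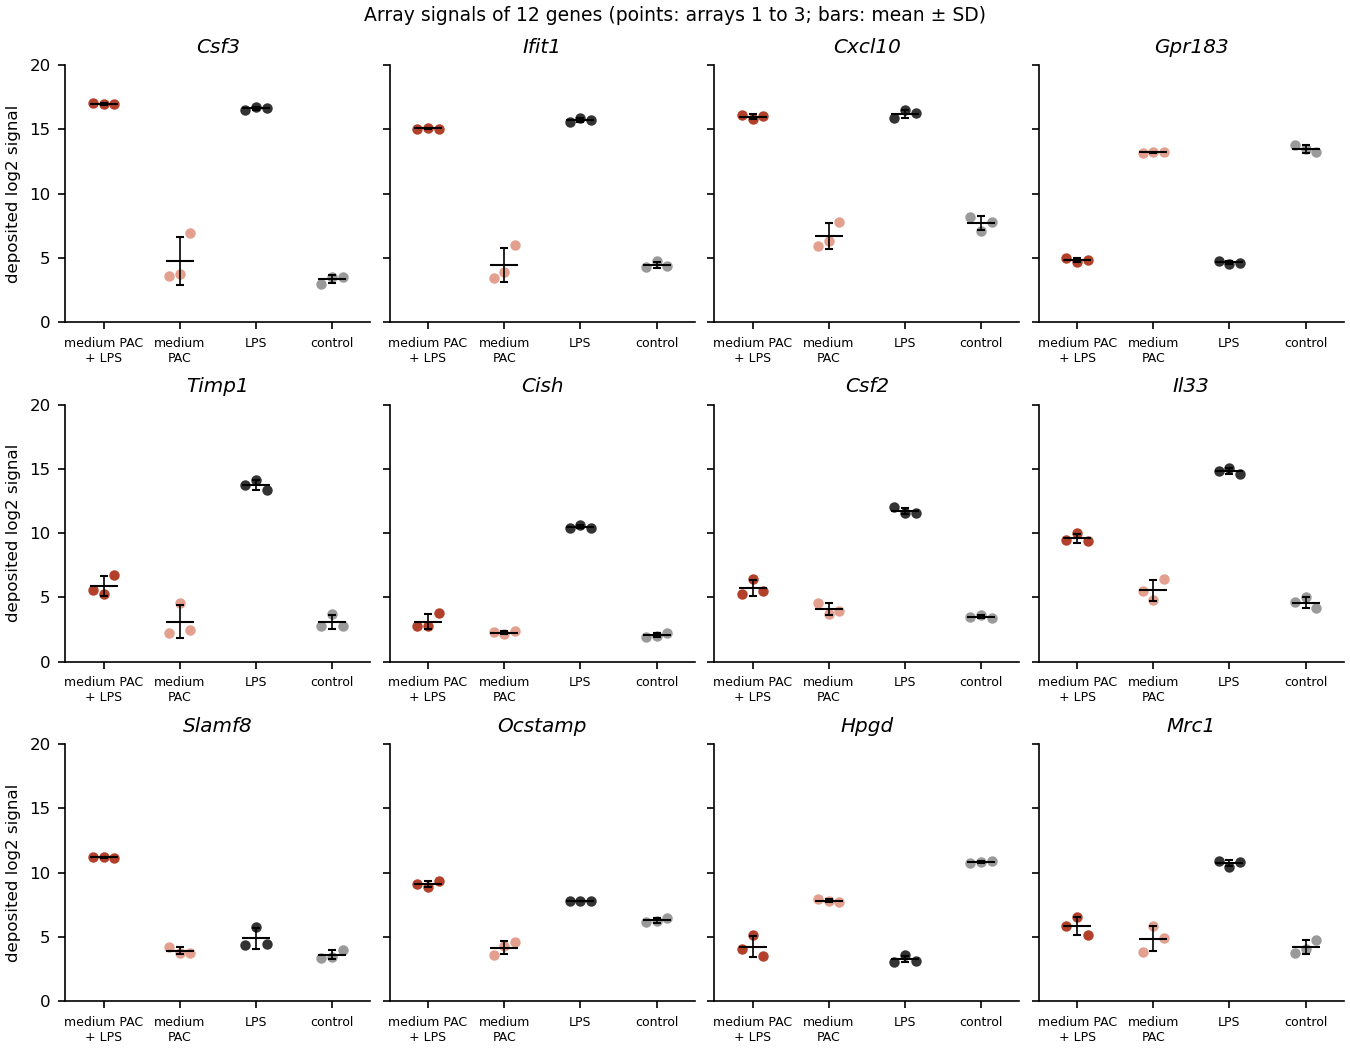
Points are the array signals of 12 genes in the 4 groups on the deposited log2 scale, and bars are the mean ± SD of 3 arrays. Csf3, Ifit1, Cxcl10 and Gpr183 in the top row reached like levels with LPS in cells with and without medium PAC; Timp1, Cish, Csf2 and Il33 in the middle row were far lower in medium PAC + LPS cells than in LPS cells, and Slamf8 and Ocstamp were higher.

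Promoters of 4 of these genes and of Il6 are shown for contrast with the interferon genes above, with the same motifs in capitals. Timp1 is at chrX:20870066-20870165 on the plus strand, Cish at chr9:107296559-107296658 on the plus strand, Csf2 at chr11:54249900-54250110 on the minus strand, Mmp13 at chr9:7272351-7272513 on the plus strand and Il6 at chr5:30012864-30013113 on the plus strand.
Timp1: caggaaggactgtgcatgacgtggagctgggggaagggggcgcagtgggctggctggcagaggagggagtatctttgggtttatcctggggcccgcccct
Cish: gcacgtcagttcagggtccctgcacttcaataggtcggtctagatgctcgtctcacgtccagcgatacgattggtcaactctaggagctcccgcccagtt
Csf2: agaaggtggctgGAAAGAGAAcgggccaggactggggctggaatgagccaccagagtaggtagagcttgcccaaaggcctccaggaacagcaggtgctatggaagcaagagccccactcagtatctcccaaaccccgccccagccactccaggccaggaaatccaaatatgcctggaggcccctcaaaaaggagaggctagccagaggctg
Mmp13: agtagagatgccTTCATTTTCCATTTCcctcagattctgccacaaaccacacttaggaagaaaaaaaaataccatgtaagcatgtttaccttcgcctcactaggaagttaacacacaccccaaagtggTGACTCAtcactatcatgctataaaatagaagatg
Il6: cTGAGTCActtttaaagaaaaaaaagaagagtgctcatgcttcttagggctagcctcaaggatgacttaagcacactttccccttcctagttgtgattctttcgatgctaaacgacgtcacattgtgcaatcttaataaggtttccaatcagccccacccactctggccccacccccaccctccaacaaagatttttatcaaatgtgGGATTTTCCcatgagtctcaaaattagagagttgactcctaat
No letters of the 6 motifs were found within 250 bases of the starts of Timp1 and Cish, of which 100 bases are shown. Csf2 held 1 ISRE-like match, Mmp13 held 2 overlapping ISRE-like matches and an AP-1 match, and Il6 held a kB-like match 43 to 35 bases before its start and an AP-1 match at the far end. Over all genes that rose in both responses, the kB-like motif was in 4.39% of 342 promoters where the rise was called smaller within medium PAC. It was in 1.24% of 1370 promoters where no difference was called. These shares rest on 15 and 17 promoters. Where a rise without PAC was not called within medium PAC but the difference was called, the kB-like share was 1.99%. Over all promoters in the table it was 1.07%. Among genes that rose in both responses, the ISRE-like motif was in 9.06% of the smaller rises and 11.0% of the others. None of these shares was tested.

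Cish belongs to the genes of JAK and STAT signalling. Of 28 such genes, 15 rose (53.6%, beside 10.9% of all features) and 4 fell (14.3%, beside 17.1%) within medium PAC. The difference was called negative for 7 (25.0%, beside 3.25% of all features) and positive for none. Without medium PAC replicate 3 the negative count was 5. Socs3, which stops interleukin-6 signalling, rose by 8.85 and had the largest rise of the list. Irf7, the interferon-induced regulator of interferon genes, rose by 6.96 within medium PAC and 8.05 without PAC, with no difference called. Stat5a rose by 1.31 within medium PAC and 3.06 without PAC (difference -1.75, adjusted p = 7.45e-06), and Jak2, the kinase of the GM-CSF receptor, by 3.16 within medium PAC and 4.55 without PAC (difference -1.39, adjusted p = 0.000734). Ptpn1, a phosphatase of JAK2, moved in opposite directions: it gave 12.51, 12.65 and 12.61 with LPS and 13.34, 13.38 and 13.45 without it within medium PAC, a fall of 0.80, and rose by 1.03 without PAC.

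Part of the immediate early genes, and fewer of the feedback genes of the ERK kinases, had a smaller rise within medium PAC. Of 29 immediate early and AP-1 genes, 16 rose (55.2%, beside 10.9% of all features) and 3 fell (10.3%, beside 17.1%) within medium PAC. Without PAC 20 rose and 2 fell. The difference was called negative for 13 (44.8%, beside 3.25% of all features) and positive for none. Egr1, a zinc-finger factor downstream of ERK, gave 11.97, 11.49 and 11.55 in medium PAC + LPS cells and 10.55, 10.75 and 10.21 in medium PAC cells, a rise of 1.16 against 4.22 without PAC. Ier3, an early response gene, rose most within medium PAC, by 5.55. Atf3, a repressor of cytokine genes, rose by 1.82 within medium PAC and 4.65 without PAC. It was 4.17 higher in medium PAC cells than in control and still 1.35 higher in medium PAC + LPS cells than in LPS cells. Klf10 fell by 3.44. Among 17 ERK feedback genes, 9 rose and 2 fell in each response, with a median change of 0.53 within medium PAC and 0.68 without PAC. These were 52.9% and 11.8%, beside 10.9% and 17.1% of all features within medium PAC. The difference was called negative for 5 (29.4%, beside 3.25%), positive for 2 (11.8%, beside 3.04%) and not called for 10. Without medium PAC replicate 3 the positive count was 4. Dusp2, a phosphatase of ERK, gave 8.07, 8.53 and 8.45 with LPS and 5.60, 6.01 and 6.30 without it within medium PAC, and its rises of 2.38 within medium PAC and 6.42 without PAC differed by -4.05 (adjusted p = 1.16e-08). Dusp1, a phosphatase of p38 and JNK, rose by 3.76 within medium PAC and 4.92 without PAC, and Dusp5 rose most, by 5.07. Dusp4 had a larger rise within medium PAC, 1.69 against 0.80, but that difference was not called without control replicate 1 (0.79). Spred2 fell by 2.48.

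Some metabolic and effector enzymes of activated macrophages rose in cells with medium PAC too, and others fell. Acod1, the enzyme that makes itaconate, gave 18.28, 18.27 and 18.28 in medium PAC + LPS cells and 8.59, 8.65 and 11.62 in medium PAC cells. It rose by 8.66 within medium PAC and 12.43 without PAC, and the difference of -3.77 (adjusted p = 0.0238) was not called without medium PAC replicate 3 (-2.77) or without control replicate 2 (-3.70). Nos2, the inducible nitric oxide synthase, rose by 9.14 within medium PAC and 10.69 without PAC, and the difference was not called. Idh1, a cytosolic isocitrate dehydrogenase, changed by -1.21 within medium PAC and -2.12 without PAC. Of the 11 genes of this list, 6 rose and 3 fell in each response. These were 54.5% and 27.3%, beside 10.9% and 17.1% of all features within medium PAC. Among 27 genes of glycolysis and hypoxia, 14 rose (51.9%, beside 10.9% of all features) and 7 fell (25.9%, beside 17.1%) within medium PAC. Ndrg1, a hypoxia gene, rose most, by 3.17, and Car12, a carbonic anhydrase, fell most, by 3.35. Pfkfb3, which makes the activator of phosphofructokinase, gave 11.97, 12.11 and 11.75 with LPS and 9.81, 10.30 and 10.07 without it within medium PAC, a rise of 1.88 against 6.01 without PAC (difference -4.13, adjusted p = 9.26e-10). Hk1, a hexokinase, fell by 0.63 within medium PAC and fell by 1.91 without PAC.

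Genes of prostaglandins and leukotrienes divided by enzyme. Ptgs2, the inducible cyclooxygenase COX-2, gave 18.09, 17.82 and 17.88 in medium PAC + LPS cells, against 7.92, 8.01 and 12.70 in medium PAC cells. The rise of 8.39 was 9.96 without medium PAC replicate 3, and 7.46 without PAC. Ptges, the inducible prostaglandin E synthase, rose by 5.26 within medium PAC and 5.59 without PAC with no difference called. Hpgd, which breaks prostaglandins down, gave 4.04, 5.11 and 3.51 with LPS and 7.97, 7.83 and 7.68 without it within medium PAC, and 3.09, 3.56 and 3.16 in LPS cells against 10.73, 10.85 and 10.91 in control. It changed by -3.60 within medium PAC and -7.56 without PAC (difference 3.96, adjusted p = 8.71e-05), and its resting level was 3.00 lower with medium PAC than in control. Alox5, the 5-lipoxygenase of leukotriene synthesis, fell by 1.64 within medium PAC and fell by 5.0 without PAC, and was 2.54 lower at rest with medium PAC. Of the 16 genes of the list, 5 rose (31.2%, beside 10.9% of all features) and 6 fell (37.5%, beside 17.1%) within medium PAC.

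Costimulatory and antigen presentation genes rose in 22 of 28 cases within medium PAC (78.6%, beside 10.9% of all features). Without PAC 21 rose, and none fell in either response. Cd40, the receptor for T cell help, rose by 9.27 within medium PAC and 10.01 without PAC. Cd86, a ligand of CD28, rose by 4.14 within medium PAC and 4.10 without PAC, a difference of 0.04 (interval -1.13 to 1.20). Cd80, its close relative, gave 12.30, 12.34 and 12.10 with LPS and 8.77, 9.06 and 8.92 without it within medium PAC, and its rise of 3.33 was smaller than the 7.14 without PAC (difference -3.82, adjusted p = 1.54e-08). Cd274, the inhibitory ligand PD-L1, rose by 6.25 within medium PAC and 9.37 without PAC, and the gap lay at rest, where medium PAC cells were 3.58 above control. Slamf8, a receptor of the SLAM family on myeloid cells, had the largest positive difference of all named genes. It gave 11.22, 11.26 and 11.18 in medium PAC + LPS cells, against 4.25, 3.78 and 3.78 in medium PAC cells. LPS cells without PAC gave 4.40, 5.81 and 4.47, against 3.36, 3.44 and 4.0 in control. The difference of 5.99 had an interval of 5.03 to 6.96 (adjusted p = 3.61e-08), and the gene was above the silent level on every medium PAC + LPS array and on none of the medium PAC or control arrays. Its promoter (chr1:172590569-172590668, minus strand) is shown because it carries an ISRE-like match 14 to 6 bases before the start.
Slamf8: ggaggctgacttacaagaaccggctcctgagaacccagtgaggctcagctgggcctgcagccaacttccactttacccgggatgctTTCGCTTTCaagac

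Inflammasome and cell death genes rose in 14 of 21 cases within medium PAC (66.7%, beside 10.9% of all features) and fell in 1 (4.8%, beside 17.1%). Nlrp3, the sensor of the main inflammasome, gave 15.25, 15.38 and 15.41 with LPS and 10.16, 10.16 and 10.13 without it within medium PAC. Its rise of 5.20 was larger than the 4.17 without PAC (difference 1.02, adjusted p = 9.79e-05), and its LPS levels were 0.06 apart while resting medium PAC cells lay 0.97 below control. Fas, the death receptor, rose most within medium PAC, by 5.58. Bcl2l1, the survival protein Bcl-xL, rose by 1.48 within medium PAC and 3.87 without PAC, and was 2.62 higher at rest with medium PAC than in control. Nlrp1b, another inflammasome sensor, changed by -1.25 within medium PAC and -1.50 without PAC.

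Genes of the extracellular matrix held several further negative differences. Of 17 proteases and inhibitors, 7 rose (41.2%, beside 10.9% of all features) and 4 fell (23.5%, beside 17.1%) within medium PAC, and 10 rose and 3 fell without PAC. The median signal of the list was 4.26, 4.60 and 7.45 on the 3 resting medium PAC arrays. The median change was 0.15 within medium PAC and 2.97 without PAC. The difference was called negative for 8 (47.1%, beside 3.25% of all features) and positive for none. Mmp9, the gelatinase B, gave 7.78, 7.65 and 8.10 with LPS and 3.00, 2.54 and 4.41 without it within medium PAC, and its rises of 4.53 within medium PAC and 9.71 without PAC differed by -5.18 (adjusted p = 6.53e-07). Serpinb2, an inhibitor of plasminogen activators, rose by 8.44 within medium PAC, or 9.93 without medium PAC replicate 3, and by 13.52 without PAC. Plau, the urokinase it inhibits, fell by 3.79 within medium PAC and fell by 4.30 without PAC. Its levels were higher with medium PAC in both states, by 2.87 with LPS and by 2.36 at rest.

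The largest fall within medium PAC was that of a lipid receptor gene. Gpr183, the oxysterol receptor EBI2, gave 4.97, 4.66 and 4.84 in medium PAC + LPS cells, against 13.17, 13.21 and 13.26 in medium PAC cells. Its change of -8.39 (interval -8.81 to -7.97, adjusted p = 5.9e-17) compared with -8.85 without PAC, and the LPS values were close to the silent level. Steap3, an endosomal iron reductase, changed by -6.54, and Sgsh, a lysosomal sulfamidase, by -6.38. Klhl6 (-6.12), Rasgrp3 (-6.02), Tcf19 (-5.73), Mybl2 (-5.72), Arrb1 (-5.48), Plxdc1 (-5.46), Mcm6 (-5.43), Cxcr4 (-5.37) and Wdhd1 (-5.34) completed the 12 largest falls. Of these 12, Rasgrp3, an activator of Ras proteins, fell less within medium PAC than without it (difference 1.15, adjusted p = 0.000599). Cxcr4, the receptor of the chemokine CXCL12, fell more, with a change of -5.37 against -3.23 (difference -2.14, adjusted p = 0.000651). It gave 5.79, 6.48 and 6.38 with LPS and 11.40, 11.88 and 11.48 without it within medium PAC, and 4.18, 4.18 and 4.80 in LPS cells against 7.60, 7.48 and 7.77 in control, so that medium PAC cells were higher in both states.

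Genes of DNA replication and mitosis fell in 44 of 47 cases within medium PAC and in 45 without PAC, beside 17.1% and 20.3% of all features. The median change was -2.05 within medium PAC and -3.08 without PAC. The difference was called positive, that is a smaller fall, for 28 of the 47 (59.6%, beside 3.04% of all features). It was negative for 1 (2.1%, beside 3.25%). The count of 28 was 20 without medium PAC replicate 3 and 13 after centring on negative controls. Mcm2, part of the replicative helicase, gave 9.73, 9.94 and 10.26 in medium PAC + LPS cells and 14.11, 14.28 and 14.19 in medium PAC cells. It changed by -4.22 within medium PAC and -5.47 without PAC (difference 1.25, adjusted p = 0.000744). Mki67, the proliferation antigen Ki-67, fell by 2.05 within medium PAC and fell by 3.06 without PAC, and E2f2, a transcription factor of the cell cycle, fell by 3.86 within medium PAC and fell by 5.51 without PAC. Mcm6 fell most, with a change of -5.43 within medium PAC against -6.03 without PAC, and its difference was not called. Ccnd3, cyclin D3, was the 1 member whose fall was called larger, 1.74 against 0.37. Cdkn1a, the cell cycle inhibitor p21, was the 1 that rose, by 1.43 within medium PAC and 1.29 without PAC. The promoter of Mcm6 (chr1:128359706-128359823, minus strand) is shown for its E2F-like match 106 to 99 bases before the start, a motif found in 5 of 47 promoters of this list (10.6%), against 0.256% of all promoters.
Mcm6: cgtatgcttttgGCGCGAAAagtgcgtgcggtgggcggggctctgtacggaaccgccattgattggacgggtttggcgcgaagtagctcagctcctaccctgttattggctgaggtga

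Of 37 lysosomal genes, 19 fell (51.4%, beside 17.1% of all features) and 5 rose (13.5%, beside 10.9%) within medium PAC. The other 13 did not pass the test, and 23 fell and 7 rose without PAC. The median change was -0.44 within medium PAC and -0.95 without PAC. The difference was called positive for 12 (32.4%, beside 3.04% of all features) and negative for 4 (10.8%, beside 3.25%). The positive count was 5 after centring on negative controls. Ctsl, the protease cathepsin L, gave 16.63, 16.75 and 16.68 with LPS and 14.99, 14.95 and 15.19 without it within medium PAC, and its rise of 1.65 was larger than the 0.54 without PAC (difference 1.11, adjusted p = 0.000124). Ctsf, cathepsin F, changed by -1.24 within medium PAC and -2.73 without PAC. Ctsc, cathepsin C, was not called within medium PAC, at 0.15, and rose by 2.16 without PAC (difference -2.02, adjusted p = 1.49e-07). Npc2, which moves cholesterol out of lysosomes, rose by 1.75 within medium PAC and 2.58 without PAC. Among 19 subunits of the V-ATPase, the proton pump of lysosomes, 5 rose and 5 fell within medium PAC. Each was 26.3%, beside 10.9% and 17.1% of all features. A difference was called for 1 in each direction (5.3%, near the 3.04% and 3.25% of all features). Atp6v0a1 rose by 1.43 within medium PAC and 2.45 without PAC. Atp6v0e2 fell by 1.75 within medium PAC and fell by 2.71 without PAC, and its difference of 0.96 lost its call in 9 of 12 fits that left out 1 array (values 0.85 to 1.09, highest adjusted p 0.096). Atp6v0d2, an osteoclast-type subunit, changed by -1.69 within medium PAC and -2.46 without PAC, and stood 5.36 higher in medium PAC + LPS cells than in LPS cells and 4.58 higher in medium PAC cells than in control.

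Among 34 genes of autophagy and MiT/TFE control, 9 rose (26.5%, beside 10.9% of all features) and 8 fell (23.5%, beside 17.1%) within medium PAC, against 12 and 8 without PAC. The difference was called negative for 4 (11.8%, beside 3.25% of all features) and positive for 3 (8.8%, beside 3.04%). The positive count was 1 after centring on negative controls and without medium PAC replicate 3. Rab7b, a late endosomal GTPase, fell by 2.82 within medium PAC and fell by 1.52 without PAC (difference -1.30, adjusted p = 0.00109). Fnip2, a partner of folliculin, was not called within medium PAC, at -0.07, and rose by 2.18 without PAC, and medium PAC cells lay 3.36 above control at rest. Atg16l1, which directs LC3 conjugation, had the largest rise, 1.26, not called in the unmoderated test on only the groups compared (adjusted p = 0.1). Vps18, a vesicle tethering subunit, changed by 0.16 within medium PAC and -0.72 without PAC, and its difference of 0.88 lost its call in 5 of 12 fits that left out 1 array (values 0.66 to 1.02).

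Of 24 genes of cholesterol and fatty acid synthesis, 9 rose (37.5%, beside 10.9% of all features) and 5 fell (20.8%, beside 17.1%) within medium PAC. Without PAC 4 rose and 10 fell. The difference was called positive for 7 (29.2%, beside 3.04%) and negative for none. The positive count was 4 after centring on negative controls. Hmgcs1, an early enzyme of the pathway, gave 14.21, 14.01 and 13.98 in medium PAC + LPS cells and 12.26, 12.49 and 12.64 in medium PAC cells. It rose by 1.60 within medium PAC and 0.37 without PAC (difference 1.23, adjusted p = 0.000146), and the resting level was 1.42 lower with medium PAC than in control. Insig1, a sterol sensor, rose most, by 1.88. Mvd, another enzyme of the pathway, was not called within medium PAC, at -0.06, and fell by 1.44 without PAC. Elovl6, a fatty acid elongase, fell by 4.36 within medium PAC and fell by 4.55 without PAC. On the export side, Abca1, the cholesterol exporter, rose by 2.18 within medium PAC and 5.43 without PAC (difference -3.25, adjusted p = 2.94e-08), and Abcg1, its relative, changed by -3.18 within medium PAC and -1.71 without PAC (difference -1.46, adjusted p = 0.00012). Of the 12 LXR-related genes, 2 rose and 6 fell within medium PAC, and none had a positive difference called while 4 had a negative one.

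Of 29 genes of ATF4 and the unfolded protein response, 17 rose (58.6%, beside 10.9% of all features) and 4 fell (13.8%, beside 17.1%) within medium PAC. Without PAC 21 rose and 4 fell. The difference was called negative for 6 (20.7%, beside 3.25% of all features) and positive for none. Sesn2, a stress-induced inhibitor of mTORC1, rose most, by 5.12. Slc7a11, the cystine transporter, gave 16.17, 16.26 and 16.11 with LPS and 11.74, 11.45 and 11.93 without it within medium PAC, a rise of 4.47 against 6.84 without PAC (difference -2.37, adjusted p = 7.5e-08). Sdf2l1, an endoplasmic reticulum protein, fell by 1.34. Among 27 NRF2 targets and iron genes, 11 rose (40.7%, beside 10.9% of all features) and 4 fell (14.8%, beside 17.1%) within medium PAC. The other 12 did not pass, and 12 rose and 5 fell without PAC. The difference was called negative for 6 (22.2%, beside 3.25% of all features) and positive for 2 (7.4%, beside 3.04%). Slc25a37, the mitochondrial iron importer mitoferrin, rose by 4.66 within medium PAC and 3.50 without PAC, but its difference of 1.16 lost its call in 6 of 12 fits that left out 1 array (values 1.08 to 1.26). Of 19 cytosolic ribosomal protein genes none rose and 3 fell within medium PAC (15.8%, beside 17.1% of all features), all by 0.36 or less, and none was called without medium PAC replicate 3. Rpl22 led these with -0.36, and -0.31 without that array.

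Surface receptors held differences of both signs. Of 40, 23 rose (57.5%, beside 10.9% of all features) and 7 fell (17.5%, beside 17.1%) within medium PAC. The difference was called negative for 15 (37.5%, beside 3.25%) and positive for 6 (15.0%, beside 3.04%). The positive count was 2 after centring on negative controls and 3 without medium PAC replicate 1. Il4ra, the receptor chain for interleukin-4 and interleukin-13, gave 7.93, 7.68 and 7.80 in medium PAC + LPS cells and 5.79, 5.99 and 5.71 in medium PAC cells, and its rises of 1.97 within medium PAC and 6.33 without PAC differed by -4.35 (adjusted p = 5.22e-08). Ccrl2, which binds chemerin, rose most, by 8.01, and stood higher with medium PAC in both states. P2rx7, the ATP-gated channel, fell by 2.28 within medium PAC and fell by 4.61 without PAC (difference 2.33, adjusted p = 5.41e-06). Mrc1, the mannose receptor, was the strongest loss: it gave 5.84, 6.53 and 5.15 with LPS and 3.85, 5.85 and 4.93 without it within medium PAC, where the groups overlapped, and 10.92, 10.45 and 10.85 in LPS cells against 3.72, 4.06 and 4.78 in control. Its change of 0.97 within medium PAC was not called (adjusted p = 0.129), but was 1.45 and called without medium PAC replicate 2, and the difference of -5.59 was called (adjusted p = 5.41e-06).

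The strongest LPS rises that were not called within medium PAC followed Mrc1 and Lix1: Akap12 (1.09 within medium PAC and 5.19 without PAC), Arc (0.51 within and 5.05 without), Hlx (0.12 within and 4.91 without), F11r (0.24 within and 4.77 without), Mmp12 (0.33 within and 4.53 without) and Thbs1 (0.15 within and 4.49 without). All 8 had a called difference, of -4.10 or below in each. Thbs1, the matrix protein thrombospondin-1, gave 3.76, 3.30 and 2.98 with LPS and 3.67, 2.83 and 3.09 without it, so it stayed below the silent level on all 6 arrays with medium PAC. Mmp12, the macrophage elastase, was well expressed in both groups, at 8.35, 8.84 and 9.13 with LPS and 8.39, 8.70 and 8.24 without it, and medium PAC cells lay 1.72 above control at rest. Akap12, a scaffold of protein kinase A, was called within medium PAC (1.65) when medium PAC + LPS replicate 3 was left out. Of the falls, Olfml3, a secreted matrix protein, fell by 3.22 without PAC and changed by 0.14 within medium PAC (difference 3.36, adjusted p = 5.45e-07). It gave 9.34, 9.44 and 9.86 with LPS and 8.86, 9.42 and 9.95 without it within medium PAC, with full overlap. Slc43a3, a purine base transporter, fell by 3.91 without PAC and gave -0.92 within medium PAC (adjusted p = 0.0581), and Amz1 fell by 3.18 without PAC and gave -0.99 within medium PAC. Each was called lower within medium PAC under 6 alternatives (lowest adjusted p 0.00054 for Slc43a3 and 0.0055 for Amz1).

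Some genes responded to LPS in cells with medium PAC and were not called without it. Within medium PAC, 558 features rose and 492 fell that were not called without PAC, and the difference was called for 65 and 77 of them. Of those named here, the change without PAC was itself called under some alternatives for Prokr1 (3 settings, lowest adjusted p 0.03), Atp13a4 (only the groups compared, 0.044) and Plxnc1 (-1.04 without control replicate 1, 0.037). Atp13a4, a P-type ATPase, gave 6.72, 6.98 and 7.07 in medium PAC + LPS cells, against 2.83, 2.65 and 2.05 in medium PAC cells, a rise of 4.41 (difference 3.86, adjusted p = 3.54e-06). LPS cells without PAC gave 2.69, 2.48 and 2.98, against 2.12, 2.22 and 2.14 in control, all below the silent level. Prokr1, a prokineticin receptor, rose by 3.35, Lrrc32, which tethers latent TGF-beta, by 2.56, and Dio2, which activates thyroid hormone, by 2.39, each with a called difference. Casz1 rose by 3.52, but its difference of 2.40 was not called (adjusted p = 0.0555). Among the falls, Cd28, the T cell costimulatory receptor, gave 4.34, 3.66 and 4.54 with LPS and 7.12, 7.52 and 5.61 without it within medium PAC, and was not called without PAC (-0.04). Its difference was -2.53, and medium PAC cells lay 2.34 above control at rest. The Cd28 fall was not called in the unmoderated test on only the groups compared (adjusted p = 0.07). Tmem154 fell by 3.01 and Plxnc1, a semaphorin receptor, fell by 3.02, and their medium PAC levels lay 2.99 and 1.92 above control at rest.

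The other large positive differences were of several kinds. Ppfia3, a liprin scaffold protein, rose by 6.25 within medium PAC and 2.60 without PAC, and Nedd4l, a ubiquitin ligase, by 4.03 within medium PAC and 0.84 without PAC. Ocstamp, a protein of osteoclast fusion, gave 9.13, 8.88 and 9.38 in medium PAC + LPS cells and 3.60, 4.28 and 4.60 in medium PAC cells. In LPS cells it gave 7.82, 7.76 and 7.82, against 6.13, 6.25 and 6.47 in control, so that medium PAC cells were lower by 2.12 at rest and 1.33 higher with LPS. Angpt2, an angiopoietin, changed by -3.27 within medium PAC and -6.74 without PAC, and Rarb, a retinoic acid receptor, fell by 1.12 within medium PAC and fell by 4.39 without PAC, where Rarb was 3.01 lower at rest with medium PAC and below the silent level in all medium PAC arrays. The 10 most positive differences remained called in every fit that left out 1 array.

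Among the 41 features called in opposite directions, a few were chosen after their values were seen. Pdgfb, a growth factor of the PDGF family, fell by 1.32 within medium PAC and rose by 2.66 without PAC (difference -3.98, adjusted p = 6.56e-11). Tsc22d1, a leucine zipper regulator, fell by 1.80 within medium PAC and rose by 2.10 without PAC. In the other direction, Sh3bp5, which binds JNK and activates Rab11, rose by 1.80 within medium PAC and fell by 0.76 without PAC.

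**Figure D5:**
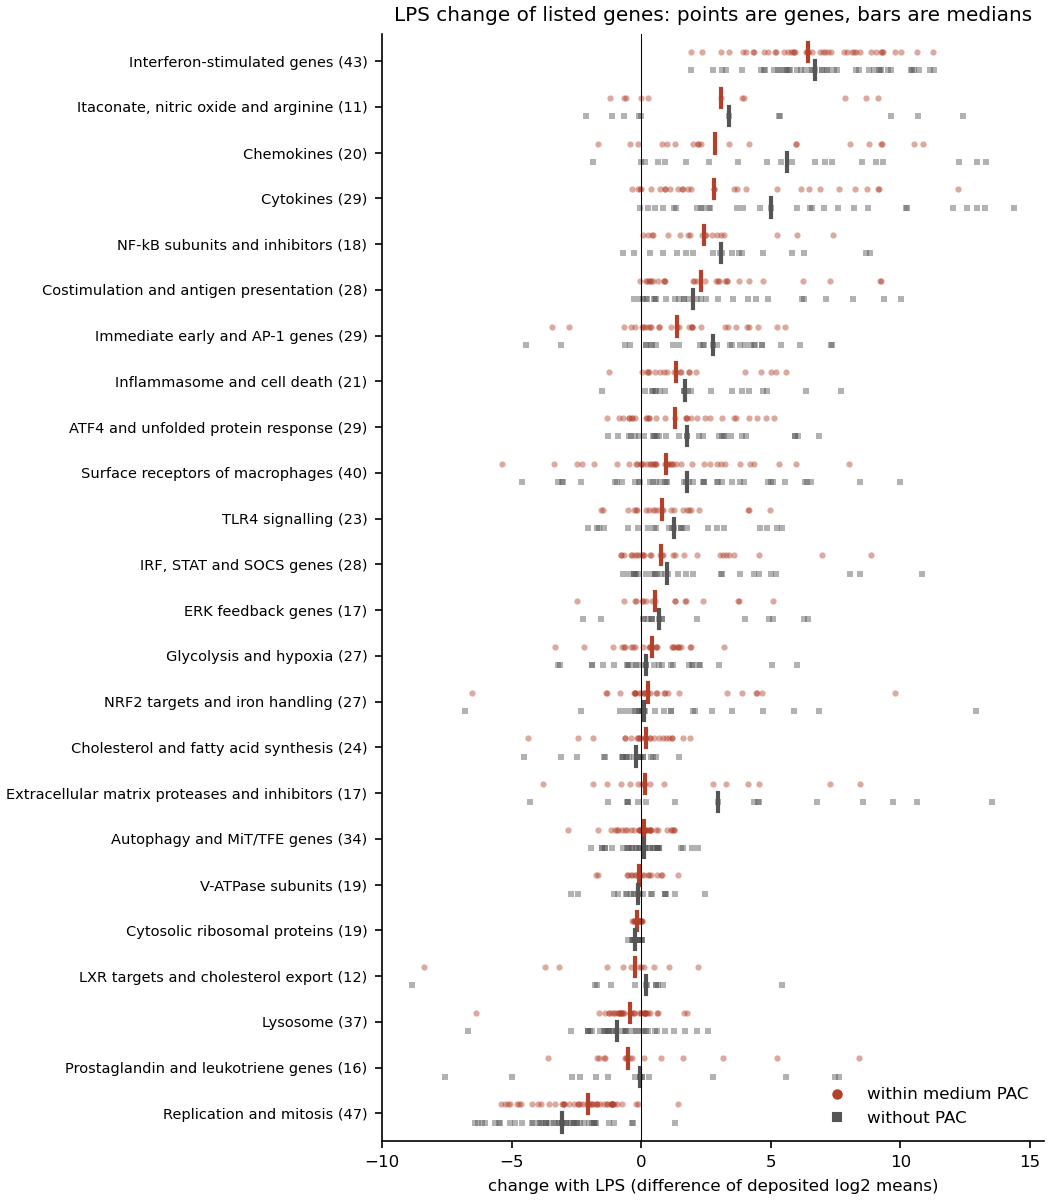
Points are the LPS changes of listed genes within medium PAC (red, upper row of each list) and without PAC (grey, lower row) in deposited log2 units, bars are medians, and the number measured is in parentheses. The interferon-stimulated medians of 6.43 and 6.70 nearly coincide, while the cytokine medians are 2.81 and 5.02 and those of replication and mitosis -2.05 and -3.08.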

How the data were processed

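RNA of RAW264.7 cells was hybridized by the authors to mouse Clariom S arrays, 1 array per sample. The deposited table holds log2 signals of 28846 features, analysed by the authors in Transcriptome Analysis Console. How these log2 values were summarised, background corrected and normalized was not given in the sources used here. Gene medians were nearly equal on all arrays, so the values were used as deposited. Values ran from 0.95 to 19.26, so changes are given on the deposited scale and not as folds. After 6640 control features were left out, 22206 gene features remained, of which 19572 (88.1%) had 1 symbol in the platform annotation and 2634 had none here. No column of sample values was left unused.

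One model with a mean for each of the 8 groups was fitted to all 24 arrays in limma 3.58.1 (R 4.3.3), with 16 residual and 3.39 prior degrees of freedom and no filter. Tests were two-sided, moderated, and adjusted by Benjamini-Hochberg over all 22206 features. The difference between responses was the interaction contrast. With 3 arrays per group, the number of arrays limits the precision. In simulated data of 22206 genes, the test within medium PAC recovered 112 of 200 planted changes of 1 and 193 of 200 changes of 2 with 21 false calls. The test of the difference recovered 22 of 100 differences of 1 and 74 of 100 of 2 with 4 false calls. Each simulated gene had 1 mean over all groups except where a change was planted. Calls on the arrays were far more common, 28.0% within medium PAC and 6.29% for the difference, so these recoveries may not hold for the tests here.

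Genes were named by rule: the 12 largest rises and falls within medium PAC without overlap of arrays, the 10 largest called differences in each direction, the 8 largest changes in each direction called in only one response, and in each of 24 lists the extremes and members whose role the text describes. Predicted genes were left out, and not every gene that met these rules is named in the text. The comparison, the lists and the rules were chosen with earlier results of these data known. List counts are descriptions with no test. Promoter sequences are from RefSeq. Alternatives covered the normalization, a filter on silent features, the arrays in the model, the variance model, array weights, the replicate number as a block, an unmoderated test, and leaving out each array in turn.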

Additional observations from a re-analysis of the deposited data

Results flagged for a closer look

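The LPS response itself differed between cells with and without medium PAC, by the limma test of the difference between the responses, for 675 features in the positive direction and 722 in the negative. The named genes among them follow, each with the response within medium PAC minus the response without PAC on the deposited log2 scale. The same arrays gave every value, so they are not independent of each other.

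Among secreted signals the difference was -6.59 for Csf2, -6.20 for Il33, -5.68 for Il19, -4.93 for Lif, -3.80 for Il6, -1.96 for Il27, -1.88 for Il10 and -0.99 for Tnf. The interleukin-1 antagonist gene Il1rn gave -4.21, and the chemokine genes Ccl3 and Ccl4 gave -3.20 and -3.06.

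Among genes of signal transduction and transcription, the difference was -7.60 for Cish, -5.82 for Maf, -3.35 for Bcl3, -2.82 for Tnfaip3, -1.03 for Nfkbia, -2.66 for Map3k8, -1.75 for Stat5a and -1.39 for Jak2. Early response genes gave -3.05 for Egr1 and -2.82 for Atf3, and the phosphatases -4.05 for Dusp2 and -1.15 for Dusp1. Usp18 gave -1.70, Bcl2l1 -2.39 and the cyclin gene Ccnd3 -1.37.

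Matrix genes gave -7.86 for Timp1, -5.89 for Mmp13 and -5.18 for Mmp9. Receptors and surface proteins gave -6.02 for Ptger2, -5.59 for Mrc1, -4.35 for Il4ra, -3.82 for Cd80, -3.11 for Cd274 and -1.05 for Tlr4, and Tlr4 fell more within medium PAC, as did Abcg1 and Ccnd3. In metabolism and transport, the difference was -4.13 for Pfkfb3, -3.77 for Acod1, -3.25 for Abca1, -2.37 for Slc7a11 and -1.46 for Abcg1. Lysosomal and autophagy genes gave -2.02 for Ctsc, -2.26 for Fnip2 and -1.02 for Atp6v0a1. The little studied U90926 gave -5.73 and Lix1 -5.66.

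Positive differences held larger rises and smaller falls. Larger rises, or rises not called without PAC, gave 5.99 for Slamf8, 3.86 for Atp13a4, 3.65 for Ppfia3, 3.45 for Ocstamp, 3.19 for Nedd4l, 1.32 for Cxcl16, 1.23 for Hmgcs1, 1.16 for Slc25a37, 1.11 for Ctsl, 1.02 for Nlrp3, 0.99 for Parp14 and 0.89 for Dusp4. Smaller falls, or falls not called within medium PAC, gave 3.96 for Hpgd, 3.47 for Angpt2, 3.37 for Alox5, 3.36 for Olfml3, 3.27 for Rarb, 2.33 for P2rx7, 1.85 for Ticam2, 1.64 for E2f2, 1.49 for Ctsf, 1.38 for Mvd, 1.28 for Hk1, 1.25 for Mcm2, 1.01 for Mki67, 0.96 for Atp6v0e2, 0.92 for Idh1 and 0.88 for Vps18.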

How the results depend on the processing

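Directions and counts held under most alternatives. Within medium PAC, 1748 to 2607 features rose and 2838 to 4359 fell over all alternatives, and the calls of rises ran from 2159 to 2274 and of falls from 3436 to 3524 when 1 array was left out. Without PAC, leaving out 1 array gave 2629 to 2871 rises and 4175 to 4240 falls. The difference between the responses was then positive for 523 to 640 and negative for 594 to 642. The share of rises without PAC that also rose within medium PAC ran from 57.2% to 67.1%, and that of falls from 66.6% to 76.1%. The rises called smaller numbered 291 to 319 and the falls called smaller 320 to 390.

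Centring on negative controls changed the split: 29.3% of calls within medium PAC were rises, compared with 38.8% as deposited, and 29.7% of called differences were positive, compared with 48.3%. The difference was positive for 356 features, and 236 falls were called smaller. With only features above the silent level tested, 1024 differences were positive. With a variance trend and robust prior, 11 NF-kB genes had a negative difference in place of 7. The cause of these shifts was not tested.

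The replicate number as a block gave 2399 rises and 3748 falls within medium PAC and 631 positive and 659 negative differences. Deviations of same-numbered arrays correlated at -0.02 to 0.09. These low values cannot tell whether a number marks a shared culture or day, because a small shared effect could go unseen.

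Of 3861 recomputed values of named genes, 40 lost their call, 30 gained one and 14 changed sign, all 14 of changes not called to begin with. Within medium PAC, centring on negative controls gave -0.02 for Hlx and 0.0 for Olfml3. Leaving out 1 array gave F11r -0.04 (medium PAC + LPS replicate 3) to 0.42, Hlx -0.06 (medium PAC + LPS replicate 2) to 0.33, Olfml3 -0.14 (medium PAC replicate 1; -0.02 without medium PAC + LPS replicate 3) to 0.41 and Thbs1 -0.06 (medium PAC + LPS replicate 1; -0.04 without medium PAC replicate 2) to 0.39. Without PAC, it gave Cd28 -0.29 to 0.15 (LPS replicate 2; 0.04 without LPS replicate 3), Gpr176 -0.08 (LPS replicate 3; -0.02 without control replicate 1) to 0.23 and Spire2 -0.20 to 0.0 (control replicate 1), and quantile normalization gave -0.02 for Gpr176.

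With 3 arrays a group, differences of 1 were often missed in the simulated data, where 22 of 100 were recovered. On the arrays, 3776 features had an unadjusted p under 0.05 for the difference in limma, of which 1397 were called after adjustment. Signals below the silent level carry little order, and 35 of the called differences had every group mean there. The scale of the highest signals is not known.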
